A study of Bubalus bubalis with 3 samples.

Results

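The family of miR-130, miR-301 and miR-454 is a set of vertebrate miRNAs that share one seed, the stretch near the 5′ end through which a miRNA finds its target mRNAs. Its members were chosen by name from the deposited miRNA table, as bta-miR-130a, bta-miR-130b, bta-miR-301a, bta-miR-301b and bta-miR-454, where bta marks the bovine nomenclature. The prefix is left out below. Of these 5 names, 4 were listed and are described here, out of 622 listed names of which 396 carry a known bovine name. miR-130b was not analysed here. The samples were adipose tissue from Chinese swamp buffalo aged 6 months, taken at a slaughterhouse, and formed 1 group of 3 small RNA libraries, called library 1, 2 and 3 after the numbers in their titles. No genotype, treatment, sex or fat depot is given in the labels used here, and nothing there says that the libraries came from separate animals, so every SD below is a spread over 3 libraries whose technical part is not known.

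A miRNA guides an Argonaute protein to mRNAs that pair with its seed, and the paired mRNAs are translated less or decayed. In human and mouse fat cell precursors miR-130 represses PPARG, the nuclear receptor that drives fat cell differentiation and lipid storage, and thereby slows adipogenesis. In the human genome miR-301a and miR-454 lie together in an intron of SKA2, a gene of chromosome segregation, whereas miR-301b and miR-130b lie next to each other in another cluster and miR-130a stands apart from both. No mRNA was measured in these libraries, so PPARG itself and any repression of it were not observed.

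Values are TPM, the reads of a miRNA scaled to a common total over the listed names. The worth of 1 read, read from the steps between low values, gave depths of 6860000, 6770000 and 5480000 reads in libraries 1, 2 and 3. The limit that a count of 0 allows, 3 reads, was 0.437, 0.443 and 0.547 TPM. A family member above these values was therefore detectable, and all 4 had at least 3 reads in every library, as had 49.5% of all listed names and 65.2% of the known bovine ones. Intervals below hold counting error and nothing else, because PCR copies of a molecule cannot be told from separate molecules here. miRNAs that mark other tissues were compared with the label. A mean of 10 TPM was reached by 0 of 7 striated muscle miRNAs and 0 of 6 epithelial ones. Some lay just under it, with means of 9.27 TPM for miR-1, 9.03 for miR-133a and 9.87 for the epithelial miR-141. Each of these passed 10 TPM in library 1, so muscle and epithelial miRNAs were low and not absent. The hepatocyte miRNA miR-122 was at 0.367 ± 0.252 TPM (SD, n = 3). The 3 red blood cell miRNAs, 4 of 5 white blood cell miRNAs and 2 of 2 endothelial ones did reach a mean of 10 TPM. The endothelial miRNAs were the most abundant set of these, with miR-126-5p at 20165 ± 6544 TPM and miR-126-3p at 811 ± 200 TPM. No miRNA defines fat cells, so the label adipose was not tested by a marker of its own.

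The family was carried by a pair of its members, both above more than 3 in 4 of the known bovine names by mean TPM (80.3% of these names lay lower for miR-130a and 76.8% for miR-301a). Its summed level was 443.9, 165.4 and 327 TPM in libraries 1, 2 and 3, or 312 ± 140 TPM (SD, n = 3), which is 0.0312% ± 0.0140 of all TPM. The sum rested on about 3047, 1120 and 1793 reads. Library 1 was highest and library 2 lowest. A mean of at least 10 TPM was reached by 2 of the 4 members, miR-130a and miR-301a, against 26.7% of all listed names and 40.2% of the known bovine names.

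miR-130a (bta-miR-130a), for which repression of PPARG was described in human preadipocytes, was the most abundant of the 4. It had 267.8, 108.6 and 180.5 TPM in libraries 1, 2 and 3, a mean of 186 ± 79.7 TPM (SD, n = 3). Its mean held rank 78 of the 622 names, and its rank was 77, 76 and 81 in the single libraries. Library 2 was thus lowest in TPM while the place of miR-130a in the order hardly moved.

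miR-301a (bta-miR-301a) came next, with 159.8, 52.4 and 129.3 TPM in the 3 libraries and a mean of 114 ± 55.3 TPM (SD, n = 3). It held rank 92 by its mean and ranks 94, 96 and 90 in the libraries. The 3 libraries kept the same order as for miR-130a, with library 1 highest and library 2 lowest.

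miR-454 (bta-miR-454), which carries the same seed in a mature sequence otherwise unlike that of miR-130a, was far below miR-301a, which exceeded it 13.6 ± 3.69 times (SD, n = 3). It had 10.6, 3.2 and 13.7 TPM, from about 73, 22 and 75 reads, and a mean of 9.17 ± 5.39 TPM (SD, n = 3) at rank 175. It was the only one of the 4 that was highest in library 3, but the 95% exact counting interval of its ratio of library 1 to library 3, 0.774, ran from 0.556 to 1.09, so these libraries were not separated in unscaled TPM. After division by size factors, which correct for the general level of a library, the ratio was 0.645 with an interval of 0.463 to 0.907, which lies below 1. Its mean lay just under the minimum of 10 TPM, which it passed in libraries 1 and 3.

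miR-301b (bta-miR-301b), whose mature sequence is nearly identical to that of miR-301a, was the lowest member. It had 5.7, 1.2 and 3.5 TPM, from about 39, 8 and 19 reads, and a mean of 3.47 ± 2.25 TPM (SD, n = 3) at rank 230. The 95% Poisson interval of its value in library 2 ran from 0.510 to 2.33 TPM, which did not reach the interval in library 1, 4.04 to 7.77 TPM. The sources used here do not say how reads were divided between near-identical miRNAs, so the low level of miR-301b beside miR-301a, and the share of reads of any close relative counted under miR-130a, are uncertain.

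**Figure D1:**
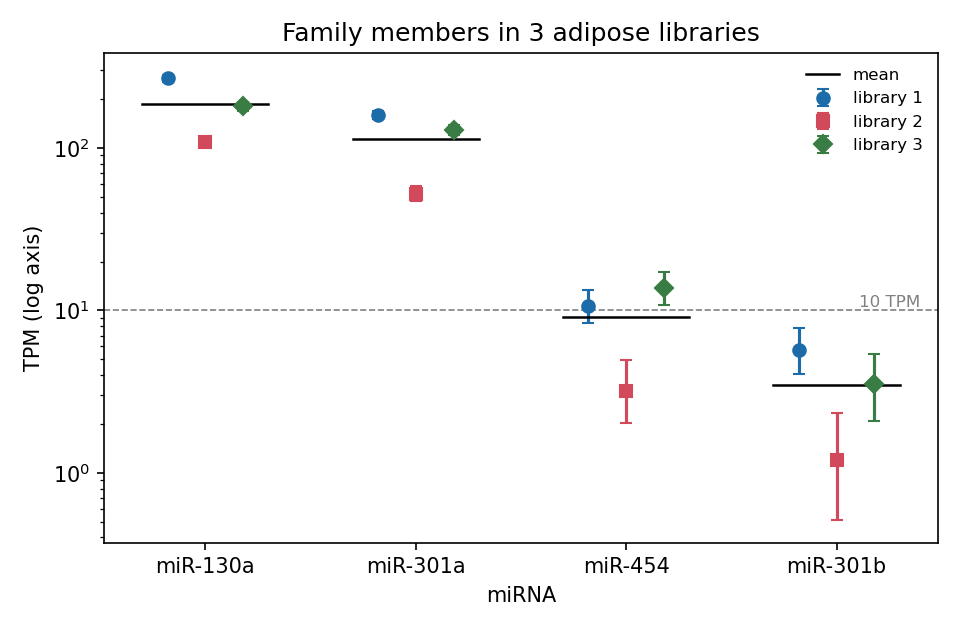
TPM on a log axis for the 4 listed family members in libraries 1, 2 and 3, with 95% Poisson intervals from the estimated reads as bars and the mean of the 3 libraries as a black line. miR-130a and miR-301a lie above the dashed line at 10 TPM in every library, miR-454 lies on both sides of it, and miR-301b lies below it, with library 2 lowest for all 4.

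Neighbours in the order of all names place the members on a common scale. miR-130a stood between miR-28 (189 ± 47.2 TPM, SD, n = 3) and miR-423-5p (179 ± 68.5 TPM). miR-301a stood between miR-152 (116 ± 30.5 TPM) and miR-409a (109 ± 84.3 TPM). Each of these differences was far smaller than the SD, and none kept the same direction in every library, so the neighbours were not separated. miR-454 stood between the muscle miRNA miR-1 (9.27 ± 3.35 TPM) and miR-18a (9.10 ± 5.003 TPM). miR-301b stood between miR-1307 (3.60 ± 1.82 TPM) and miR-324 (3.47 ± 2.60 TPM).

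Differences between members were taken within each library. The scaling of the library cancels in a ratio of TPM. It does not fully cancel in a difference of logs, because the constant added to TPM before the log does not scale with the library. This matters most for the low members and leaves the direction of a difference unchanged. All 6 pairs of members kept one direction in 3 of 3 libraries, in the order miR-130a, miR-301a, miR-454 and miR-301b. With 3 libraries the smallest p of an exact permutation test by sign flips, two-sided, is 0.25, and every pair had p = 0.25, also after Benjamini-Hochberg adjustment over the 6 pairs. No difference could therefore pass a threshold of 0.05, and the sizes are given as descriptions.

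miR-130a exceeded miR-301a by 0.75 ± 0.28 units of log2(TPM + 1) (SD, n = 3), with ratios of TPM of 1.68, 2.07 and 1.40 in libraries 1, 2 and 3. This was the smallest of the 6 differences and still more than its SD. miR-301a exceeded miR-454, its partner in the human SKA2 intron, by 3.54 ± 0.34 log2 units, and the ratio of TPM was 15.1, 16.4 and 9.44. The ratio was lowest in library 3, where miR-454 was highest. miR-301a exceeded miR-301b by 4.68 ± 0.15 log2 units, with ratios of 28.0, 43.7 and 36.9. This SD was the smallest of the 6, but the added 1 TPM damps changes in a member as low as miR-301b. The pair was therefore not shown to be the steadiest. miR-454 exceeded miR-301b by 1.14 ± 0.49 log2 units, with ratios of 1.86, 2.67 and 3.91. miR-130a exceeded miR-454 by 4.29 ± 0.58 and miR-301b by 5.43 ± 0.18 log2 units. With a pseudocount of 10 TPM in place of 1 the difference of miR-454 and miR-301b was 0.48 and that of miR-301a and miR-301b 3.09 log2 units.

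The same values can be read as the composition of the family. miR-130a held 60.3%, 65.7% and 55.2% of the family sum in libraries 1, 2 and 3, or 60.4% ± 5.23 (SD, n = 3). miR-301a held 36.0%, 31.7% and 39.5%, or 35.7% ± 3.94. The 95% Wilson intervals of miR-130a, 58.6% to 62.0%, 62.8% to 68.3% and 52.9% to 57.5%, did not overlap between any pair of libraries, so the composition varied beyond counting error. Other families were not compared in this way, so this is no trait of the family. For miR-301a the interval in library 2, 29.04% to 34.5%, did not reach that in library 3, 37.3% to 41.8%, while library 1 overlapped both. miR-454 held 2.84% ± 1.19 and was at 4.19% in library 3 against 2.39% and 1.93% in libraries 1 and 2. miR-301b held 1.03% ± 0.282, and its intervals overlapped between all libraries.

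**Figure D2:**
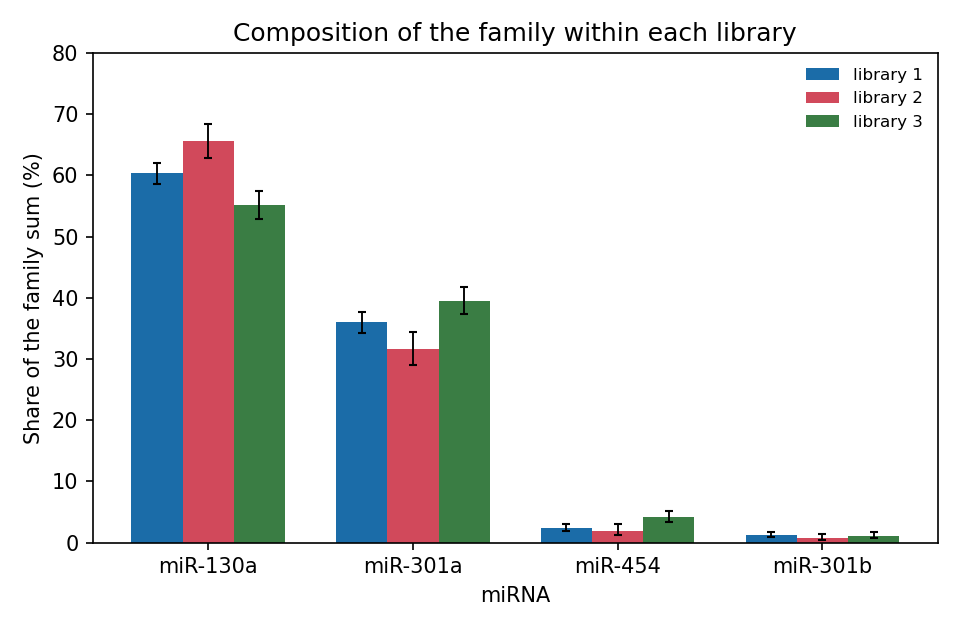
Share of the family sum, in percent, held by each listed member in libraries 1, 2 and 3, with 95% Wilson intervals from the estimated reads as bars. miR-130a and miR-301a fill nearly all of the family, and the share of miR-130a is 65.7% in library 2 and 55.2% in library 3.

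How far the members varied between libraries was compared with the other names. All 4 members were lowest in library 2 in TPM, which was also true of 91.6% of the 166 names whose mean reached 10 TPM and of 85.9% of the 306 known bovine names above 0 in every library. The order of library 1 highest and library 2 lowest was found in 3 of 4 members and in 65.7% of the 166 names. The shares were near the background and are no result about the family. The summed TPM of the 3 red blood cell miRNAs also followed this order, at 6182, 2558 and 5046 in libraries 1, 2 and 3. So did that of the 2 endothelial miRNAs, at 25474, 13223 and 24230, while the 6 epithelial ones summed highest in library 3. The summed TPM of the 5 white blood cell miRNAs was 914, 190 and 297. The part of these cells in the level of the family was not tested. In whole tissue, fewer cells of a type and less miRNA per cell cannot be told apart. TPM is also a share of a common total, so a value moves with the levels of the other names.

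The SD of log2(TPM + 1) over the libraries was 0.65 for miR-130a, 0.84 for miR-301a, 0.81 for miR-301b and 0.96 for miR-454, beside a median of 0.66 over the 166 names. Size factors, the median ratio of a library to the geometric mean of the libraries over these names, were 1.39, 0.609 and 1.16. After division by them the SDs were 0.15, 0.23, 0.39 and 0.52 in the same order, beside a median of 0.29. The SD of the family sum went from 0.73 to 0.12. The 2 abundant members then lay below the median of the 166 names, and the 2 members with few reads lay above it. miR-301b and miR-454 are not among the 166 names, all of which have a higher mean TPM. Names of their own level were not compared, so whether their SDs were high for that level was not tested.

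After size factors the members no longer moved alike. miR-130a deviated from its own mean by 0.14, 0.03 and -0.17 log2 units in libraries 1, 2 and 3, and was lowest in library 3. miR-301a deviated by 0.15, -0.26 and 0.11 and was lowest in library 2. The ratio of library 1 to library 2 after size factors was 1.08 for miR-130a, with a 95% exact counting interval of 0.992 to 1.18 that treats the size factors as known. The ratios of miR-130a to library 3 were 1.24 for library 1 (1.14 to 1.34) and 1.14 for library 2 (1.04 to 1.26), so its value in library 3 was low beyond counting error. The ratio of library 1 to library 2 was 1.34 for miR-301a, with an interval of 1.18 to 1.51, and its ratio of library 2 to library 3 was 0.770, with an interval of 0.677 to 0.877. Library 2 was thus low for miR-301a beyond counting error and was not shown to be low for miR-130a.

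The low members showed the same side of 0 in library 2 as miR-301a. miR-454 deviated by -0.04, -0.50 and 0.54, and its ratio of library 2 to library 3 after size factors was 0.444, with an interval of 0.267 to 0.735. miR-301b deviated by 0.37, -0.41 and 0.03, and its ratio of library 1 to library 2 was 2.08, with an interval of 0.971 to 5.22 that includes 1. Library 2 was lowest after size factors for 3 of 4 members, against 31.3% of the 166 names and 37.6% of the 306 known bovine names above 0 in every library. With 4 members and 3 libraries this is a description.

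**Figure D3:**
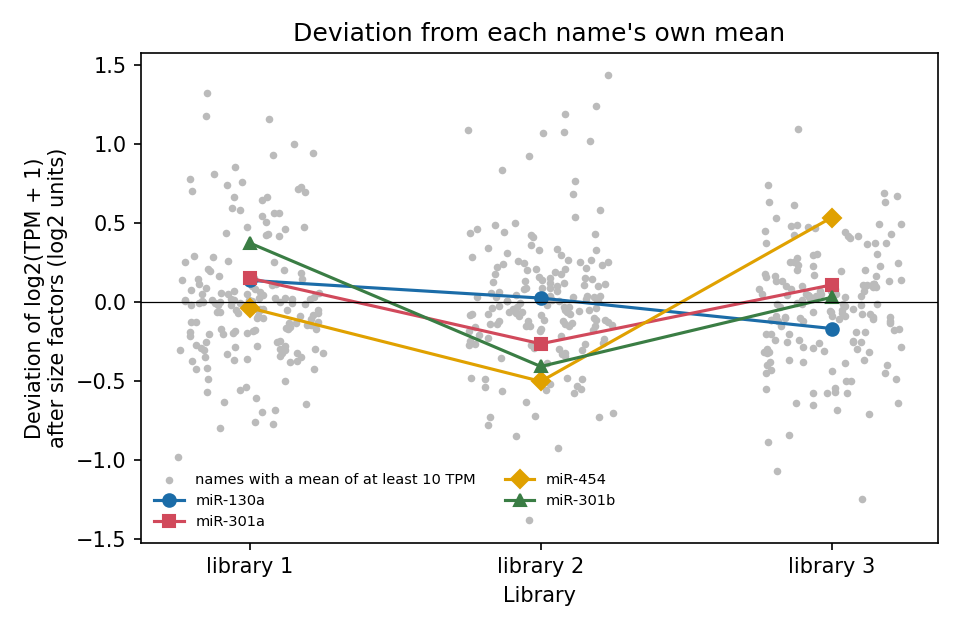
Deviation of log2(TPM + 1) after size factors from the own mean of a name, in log2 units, in libraries 1, 2 and 3. Grey points are the 166 names whose mean reached 10 TPM, spread sideways at random, and coloured lines join the values of a family member. miR-130a stays within 0.17 of 0, while miR-301a, miR-454 and miR-301b are lowest in library 2.

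Names with the most similar deviations were sought among those with a mean of at least 10 TPM, by Euclidean distance over the 3 libraries after size factors. For miR-130a they were miR-320a (distance 0.11 log2 units), miR-2898 (0.11) and let-7c (0.13), beside a median distance of 0.50. For miR-301a they were miR-103 (0.02), miR-20a (0.04) and miR-769 (0.05), beside a median distance of 0.60. miR-103, which has 868.7, 282 and 693.2 TPM in the libraries, is encoded in introns of PANK genes and is reported to promote fat cell differentiation. miR-130a and miR-301a lay 0.40 apart, less than both median distances. The nearest names were picked for being closest, so a single fixed pair is not fairly compared with them. With 3 points a distance orders names and says nothing of shared control.

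miR-27a and miR-27b, which also repress PPARG and block fat cell differentiation in cultured cells, were far more abundant. miR-27b had 30289, 15039 and 21758 TPM in libraries 1, 2 and 3, or 22362 ± 7643 TPM (SD, n = 3). It exceeded miR-130a by 113, 138 and 121 times in the libraries. miR-27a-3p, the functional arm of the miR-27a hairpin, had 840.5, 404 and 531.7 TPM and exceeded miR-130a in 3 of 3 libraries, whereas miR-27a-5p had 8.43 ± 2.17 TPM. Of the summed TPM of miR-27b, miR-27a-3p and the family, the family held 1.41%, 1.06% and 1.45%, and miR-27b held 96.2% ± 0.213. These are levels of miRNAs and carry no measure of how strongly each acts on PPARG.

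Among miRNAs reported to inhibit fat cell differentiation, picked from background knowledge, the family took places from the upper part of the order to near its end. The list is not held to be complete, so the places and shares below depend on it. Of 12 other inhibiting miRNAs 11 were listed and 6 reached a mean of 10 TPM, as did 40.2% of the known bovine names. The median of the 11 was 33.5 TPM, beside 4.82 TPM over all known bovine names. In the joint order of these 11 and the 4 family members, miR-130a was number 4, after miR-27b, miR-145 (961 ± 479 TPM, SD, n = 3) and miR-27a-3p (592 ± 224 TPM). miR-301a was number 6, just below miR-221 (127 ± 46.1 TPM), miR-454 number 9 and miR-301b number 13 of 15. The means of miR-221 and miR-301a differed by less than their SDs, but miR-221 was higher in each library. It had 162, 74.4 and 143.1 TPM in libraries 1, 2 and 3, against 159.8, 52.4 and 129.3 TPM for miR-301a. Of 17 miRNAs reported to promote differentiation, all were listed and 14 reached a mean of 10 TPM, with a median of 615 TPM, above every family member. The family sum was 1.29% of the sum of the other inhibiting miRNAs and 0.0858% of that of the promoting ones. These sums rest on few names. miR-27b held 22362 of the 24157 TPM of the inhibiting miRNAs. miR-143 and miR-26a held 209686 and 96857 of the 363814 TPM of the promoting ones.

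**Figure D4:**
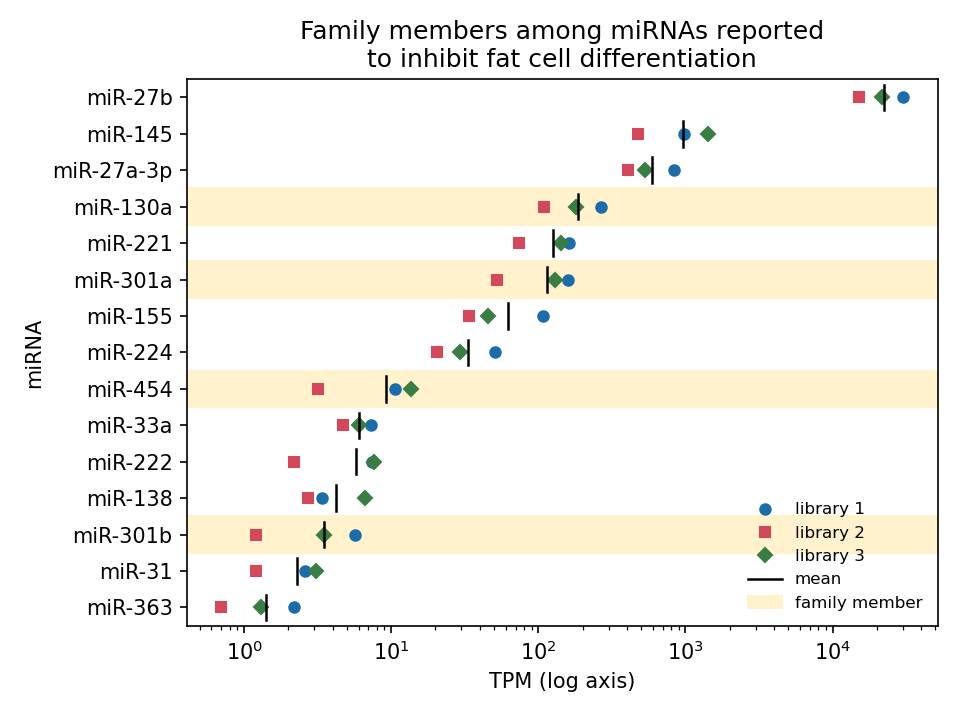
TPM on a log axis in libraries 1, 2 and 3 for the 4 family members (shaded rows) and 11 other miRNAs reported to inhibit fat cell differentiation, ordered by the mean of the libraries (black line). miR-27b is far to the right of all others, and miR-130a and miR-301a hold places 4 and 6 of 15.

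Some other miRNAs have seeds shifted by a base against that of the family, so that their target sites can overlap in part. These are miR-148a, miR-148b and miR-152 on one side and miR-19a and miR-19b on the other. All 5 had a mean of at least 10 TPM. miR-148a, at 10959 ± 4169 TPM (SD, n = 3), was 59.04 times as abundant as miR-130a by the means, and miR-148b had 325 ± 34.6 TPM. miR-19b, a member of the proliferation-linked miR-17-92 cluster, had 275.3, 140.2 and 406.8 TPM and exceeded miR-130a in 3 of 3 libraries, while miR-19a had 25.7 ± 11.001 TPM. The family sum was 2.67% of the sum of these 5.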

How the data were processed

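The values deposited by the authors are TPM, per the file headers, in 1 table of 3 small RNA libraries by miRNA name, with 1 decimal. Each column sums to 1000000 within rounding. Per the submitters' processing notes, which give names only, Bowtie (a short-read aligner) and bovine build UMD3.1 played a part. The samples are buffalo while the names and the build are bovine, and what that does to the level of a member was not tested. The sources used here do not give the counting program, the annotation or any filter. The 3 columns were mapped by name and 0 left unmapped.

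TPM was used unscaled and, where stated, divided by size factors (median of ratios over names that reached a mean of 10 TPM and were above 0 in every library). Logs are log2(TPM + 1), which understates differences of low miRNAs. Depth came from values up to 30 TPM, of which 99.5%, 100% and 100% lay within 0.05 TPM of a whole multiple of 1 step, against 68.7%, 67.7% and 54.7% of all values of 1 decimal. On simulated tables of 622 names, drawn around the fitted depths, the step was off by at most 0.223%. Values are rounded coarsely relative to 1 read, so read numbers are estimates. They entered the Poisson, Wilson and exact intervals as if they were counts, and no count-based test was run. With 1 group there was no contrast. Differences between members were tested by sign flips over libraries.

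Named miRNAs are the members, their neighbours in level, the 3 nearest names in deviation for members with a mean of at least 10 TPM, miR-27, miRNAs of overlapping seed, and lists from background knowledge. Overlapping seeds were taken from background knowledge in place of a search in sequences. Members and lists were chosen with earlier results of these data known. Python 3.11.15, numpy 2.4.6, pandas 2.3.3, scipy 1.17.1 and matplotlib 3.10.9 were used. Alternatives were other minimums, pseudocounts of 0.1 and 10 TPM, size factors, removal of the most abundant miRNA from the total, and leaving out each library.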

Additional observations from a re-analysis of the deposited data

How the results depend on the processing

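Of 92 alternative values for 20 results, 12 moved from the main value by the rule used and 80 did not. For the differences between members the rule looked at the sign alone. All 6 of these differences were positive in 3 of 3 libraries, so neither another pseudocount nor leaving out a library could reverse them. For the summed level, ranks and shares the rule asked for a shift of 1 SD over libraries. With 3 libraries, leaving out 1 cannot shift a mean that far, so these values could not move for the level and shares. Ranks among names of at least 10 TPM could not change either. For counts and SDs the rule asked for a set fold change, and 3 members in place of 2 did not pass it. The 80 are thus no measure of robustness. The sizes of the differences moved with the pseudocount. With 10 TPM the difference of miR-454 and miR-301b fell from 1.14 to 0.48 log2 units, that of miR-130a and miR-301b from 5.43 to 3.79, that of miR-301a and miR-301b from 4.68 to 3.09, that of miR-130a and miR-454 from 4.29 to 3.31, and that of miR-301a and miR-454 from 3.54 to 2.61. With a minimum of 1 TPM, 4 members passed in place of 2, and without a library 2 to 3 did. The family held 0.0492% of TPM once miR-10b was taken out of the total, and 0.0246% to 0.0385% without a library. Size factors lowered the SD of log2(TPM + 1) to 0.15 for miR-130a, 0.23 for miR-301a, 0.39 for miR-301b and 0.52 for miR-454, and a pseudocount of 10 lowered it to 0.24 for miR-301b and 0.44 for miR-454. Without a library that SD ranged from 0.40 to 0.92 for miR-130a, 0.21 to 1.12 for miR-301a, 0.41 to 1.14 for miR-301b and 0.24 to 1.28 for miR-454, and library 2 set the low end for each (0.40, 0.21, 0.41 and 0.24 without it). The cause was not tested. Ranks among names of at least 10 TPM exist for miR-130a and miR-301a, not for the other two. Depth limits miR-301b, with 8 reads in library 2. No paired analysis was possible because the libraries form 1 group, so no samples pair across groups. The differences between members were taken within libraries.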
